A study of Mus musculus with 12 samples.

Results

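The genes examined were those of the constitutive proteasome and its regulators. They were the protein-coding genes whose symbols begin with Psma to Psmg followed by a number, without Psmb8, Psmb9 and Psmb10, which encode the inducible catalytic subunits. The rule used names only and no measured value. It gave 47 of the 32246 genes in the deposited table, of which 17707 were protein coding. The cells were mouse macrophages derived from bone marrow in 7 days of culture with 50 ng/mL GM-CSF, a cytokine that drives myeloid growth. The 3 groups, each of 4 total RNA libraries, received plasminogen pre-exposed to 6-aminohexanoic acid (EACA, a lysine analogue) and to RNases (PLG+EACA+RNase), plasminogen pre-exposed to EACA alone (PLG+EACA), or no treatment (untreated), over 24 h. No group received EACA without plasminogen, plasminogen without EACA, or RNase alone, so no difference from untreated cells can be assigned to one of these agents. No label states that replicates were separate animals or cultures, so p-values measure only the spread between these samples, which may be technical.

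The proteasome degrades proteins that carry ubiquitin chains. Its core, the 20S particle, is a barrel of outer alpha rings, which gate the entrance, and inner beta rings, which hold the catalytic sites. A 19S regulatory particle binds the end of the barrel: its base unfolds the substrate with a ring of ATPases, and its lid removes the ubiquitin. Other caps replace the 19S particle. PA28 alpha and beta, encoded by Psme1 and Psme2, form an activator that is induced by interferon gamma and is known for its part in making peptides for MHC class I. In macrophages that meet interferon or microbial products, the catalytic subunits Psmb5, Psmb6 and Psmb7 are exchanged in new particles for Psmb8, Psmb9 and Psmb10, which forms the immunoproteasome.

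Depth, recovered from the steps of the deposited values, was 12940888 to 20389823 counted reads per library with PLG+EACA+RNase, 17518563 to 22677034 with PLG+EACA and 14780525 to 21734663 in untreated cells. All 8 macrophage markers had a mean of at least 1 FPKM (reads scaled by gene length and library depth) in every group, with summed levels of 3970 to 4490 FPKM with PLG+EACA+RNase, 3970 to 5810 FPKM with PLG+EACA and 5200 to 5800 FPKM in untreated cells. Of 6 dendritic cell markers, 2 reached a mean of 1 FPKM, with sums of 112 to 143 FPKM with PLG+EACA+RNase, 76.4 to 144 FPKM with PLG+EACA and 64.2 to 99.4 FPKM in untreated cells. Of 6 neutrophil markers 3 did so, with sums of 18.2 to 40.8 FPKM with PLG+EACA+RNase, 19 to 50.2 FPKM with PLG+EACA and 10.5 to 43.1 FPKM in untreated cells. Of 4 stromal markers 2 did so, and no marker of B, T, NK or mast cells. The noncoding RNA Gm26917 held 13.3% to 15.2% of counted reads with PLG+EACA+RNase, 11% to 14.3% with PLG+EACA and 10.3% to 11.9% in untreated cells. Most of the macrophage sum was Lyz2, with means of 3610 FPKM with PLG+EACA+RNase, 4290 FPKM with PLG+EACA and 4660 FPKM in untreated cells. Most of the dendritic sum was Ccr7, at 122, 99.9 and 78.5 FPKM in the same order. The means of Lyz2, Adgre1, Csf1r, Cd68 and Itgam were lower in both treatments than in untreated cells, and those of Mrc1, Mertk and Fcgr1 higher. These differences, and the part of these levels in the results, were not tested.

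The members lie on 16 chromosomes, and 44 of the 47 passed the filter of at least 1 FPKM in at least 4 of the 12 libraries. The 3 that did not were Psma8, a testis alpha subunit, Psmb11, the thymic catalytic subunit, and Psmc3ip, which matches by symbol and encodes a recombination factor, not a proteasome subunit. Their highest group means were 0.531 FPKM for Psma8 and 0.748 FPKM for Psmc3ip, both in untreated cells, and 0.0257 FPKM for Psmb11 with PLG+EACA+RNase. Psmg3, an assembly chaperone, was the tested member nearest the filter, and it passed through the untreated libraries alone, which held 1.05 to 1.38 FPKM while the treated libraries were all under 1. Of the tested members, 40 had over 200 reads in every library, and the range over all 44 was 29 to 7859 reads. Replicates were close: the median coefficient of variation over the tested members was 6.01% with PLG+EACA+RNase, 5.17% with PLG+EACA and 4.28% in untreated cells, where over all genes tested it was 9.89% with PLG+EACA+RNase, 10.5% with PLG+EACA and 5.84% in untreated cells.

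In untreated cells the FPKM of the particle's genes were unequal, although each alpha and beta subunit occurs equally often in a particle. FPKM divide reads by the gene length of the deposited table, 899 bases for Psmb5 and 3421 bases for Psmb7. The levels of different genes, and their ranks, therefore depend on these lengths. Over all libraries, Psmb5 had 1194 to 2372 reads and Psmb7 527 to 943. The 14 genes of the 20S core ranged in mean level from 12 FPKM (Psmb7) to 119 FPKM (Psmb5), and the 17 genes of the 19S base and lid from 10.8 FPKM to 103 FPKM (Psmd8, a lid subunit). Psmb5 was the highest member in untreated cells, and Psme2 followed at 114 ± 4.88 FPKM against 119 ± 3.99 FPKM for Psmb5 (SD, n = 4), which did not differ beyond their spread. Psme2 was the highest member in both treatments, at 146 ± 12.3 FPKM with PLG+EACA+RNase and 188 ± 6.15 FPKM with PLG+EACA.

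The start regions of 5 genes are shown because the comparisons below turn on them: both PA28 genes and the alpha subunit gene Psma5, which were among the members that differed between the 2 treatments as well as from untreated cells, and the catalytic pair Psmb5 and Psmb6. Each is 150 bases of RefSeq sequence, 130 before and 20 after the annotated start, 5′ to 3′ on the gene's strand in GRCm38.p6, with motif matches in capitals. They are Psme1 at chr14:55578364-55578513 (plus strand), Psme2 at chr14:55591082-55591231 (minus strand), Psma5 at chr3:108256796-108256945 (plus strand), Psmb5 at chr14:54617976-54618125 (minus strand) and Psmb6 at chr11:70525227-70525376 (plus strand).
Psme1: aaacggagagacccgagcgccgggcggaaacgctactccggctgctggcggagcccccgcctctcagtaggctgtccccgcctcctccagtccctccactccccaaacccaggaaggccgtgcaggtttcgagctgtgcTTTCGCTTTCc
Psme2: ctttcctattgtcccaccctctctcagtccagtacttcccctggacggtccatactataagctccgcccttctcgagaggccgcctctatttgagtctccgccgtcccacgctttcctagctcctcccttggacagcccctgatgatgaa
Psma5: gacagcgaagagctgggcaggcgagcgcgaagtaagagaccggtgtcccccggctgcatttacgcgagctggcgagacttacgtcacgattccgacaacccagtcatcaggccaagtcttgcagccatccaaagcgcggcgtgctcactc
Psmb5: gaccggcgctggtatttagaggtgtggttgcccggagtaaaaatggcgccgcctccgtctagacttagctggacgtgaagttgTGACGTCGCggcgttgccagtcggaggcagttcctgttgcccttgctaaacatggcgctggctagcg
Psmb6: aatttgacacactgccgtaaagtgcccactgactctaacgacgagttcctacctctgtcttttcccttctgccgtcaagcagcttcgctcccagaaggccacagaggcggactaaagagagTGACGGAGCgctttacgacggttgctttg

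Motifs were searched on both strands of windows from 250 bases before to 50 after each RefSeq start, for 39 members with 42 windows, against 32851 windows in all. The core of the interferon-stimulated response element was in 5 member windows, 11.9%, against 3.44% of all windows. It was at Psme1, 10 bases after the start on the opposite strand (the capitals above), and at Psmb3, Psmd4, Psmd9 and Psmg4. With PLG+EACA against untreated cells the log2 fold change was 0.71 for Psme1. For Psmb3, Psmd4, Psmd9 and Psmg4 it was -0.18, 0.07, -0.39 and -0.18. The shares of windows are description only, and a link of any motif to the changes was not tested. The antioxidant response element core, TGACNNNGC, was in 6 member windows, 14.3%, against 12.4% of all. It was at Psmb5, beginning 47 bases before the start, at Psmb6, 9 bases before it, and at Psmc6, Psmd12, Psmd9 and Psme4. The CCAAT box was in 33.3% of member windows against 37.4% of all, and the gamma-activated site, TTCNNNGAA, in 4.76% against 8.3%. No match in a window says only that these letters are not there.

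PLG+EACA was set against untreated cells to ask what EACA-exposed plasminogen changed. With PLG+EACA 5 of the 7 genes of the 20S alpha ring rose, led by Psma5, as did the PA28 alpha and beta genes, and Psmg1 and Psmg2, chaperones that assemble the 20S core, fell. Of the 17 genes of the 19S base and lid 5 rose and 4 fell on the deposited scale, and 16 rose and none fell with median-of-ratios scaling. Over the 44 tested members, 16 rose, 9 fell and 19 did not pass the test (limma on log2(FPKM + 0.5), Benjamini-Hochberg adjusted p under 0.05 over all 11165 genes tested). The 9 include Psmg3, which passed the filter through the untreated libraries alone, so its fall is no independent result. Of all genes tested, 68.3% were called, 14.9% higher and 53.4% lower. The median log2 fold change was 0.02 over the members and -0.26 over all genes tested, and 38 of the 44 members lay above the median of all genes. With median-of-ratios scaling, which sets the median of all genes near 0, 35 members rose and 2 fell, against 27.8% higher and 25.2% lower of all genes, with 53% called in either direction. In 15 members all 4 PLG+EACA libraries lay above the untreated ones and in 11, Psmg3 among them, all lay below. Over all genes tested the shares were 13.8% and 50.9%. No member changed 2-fold or more on the deposited scale, while 7.11% of all genes tested did. With scaling 3 of the 44 members did, against 7.02% of all genes. Total RNA cannot tell fewer cells of a type from less RNA per cell.

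**Figure D1:**
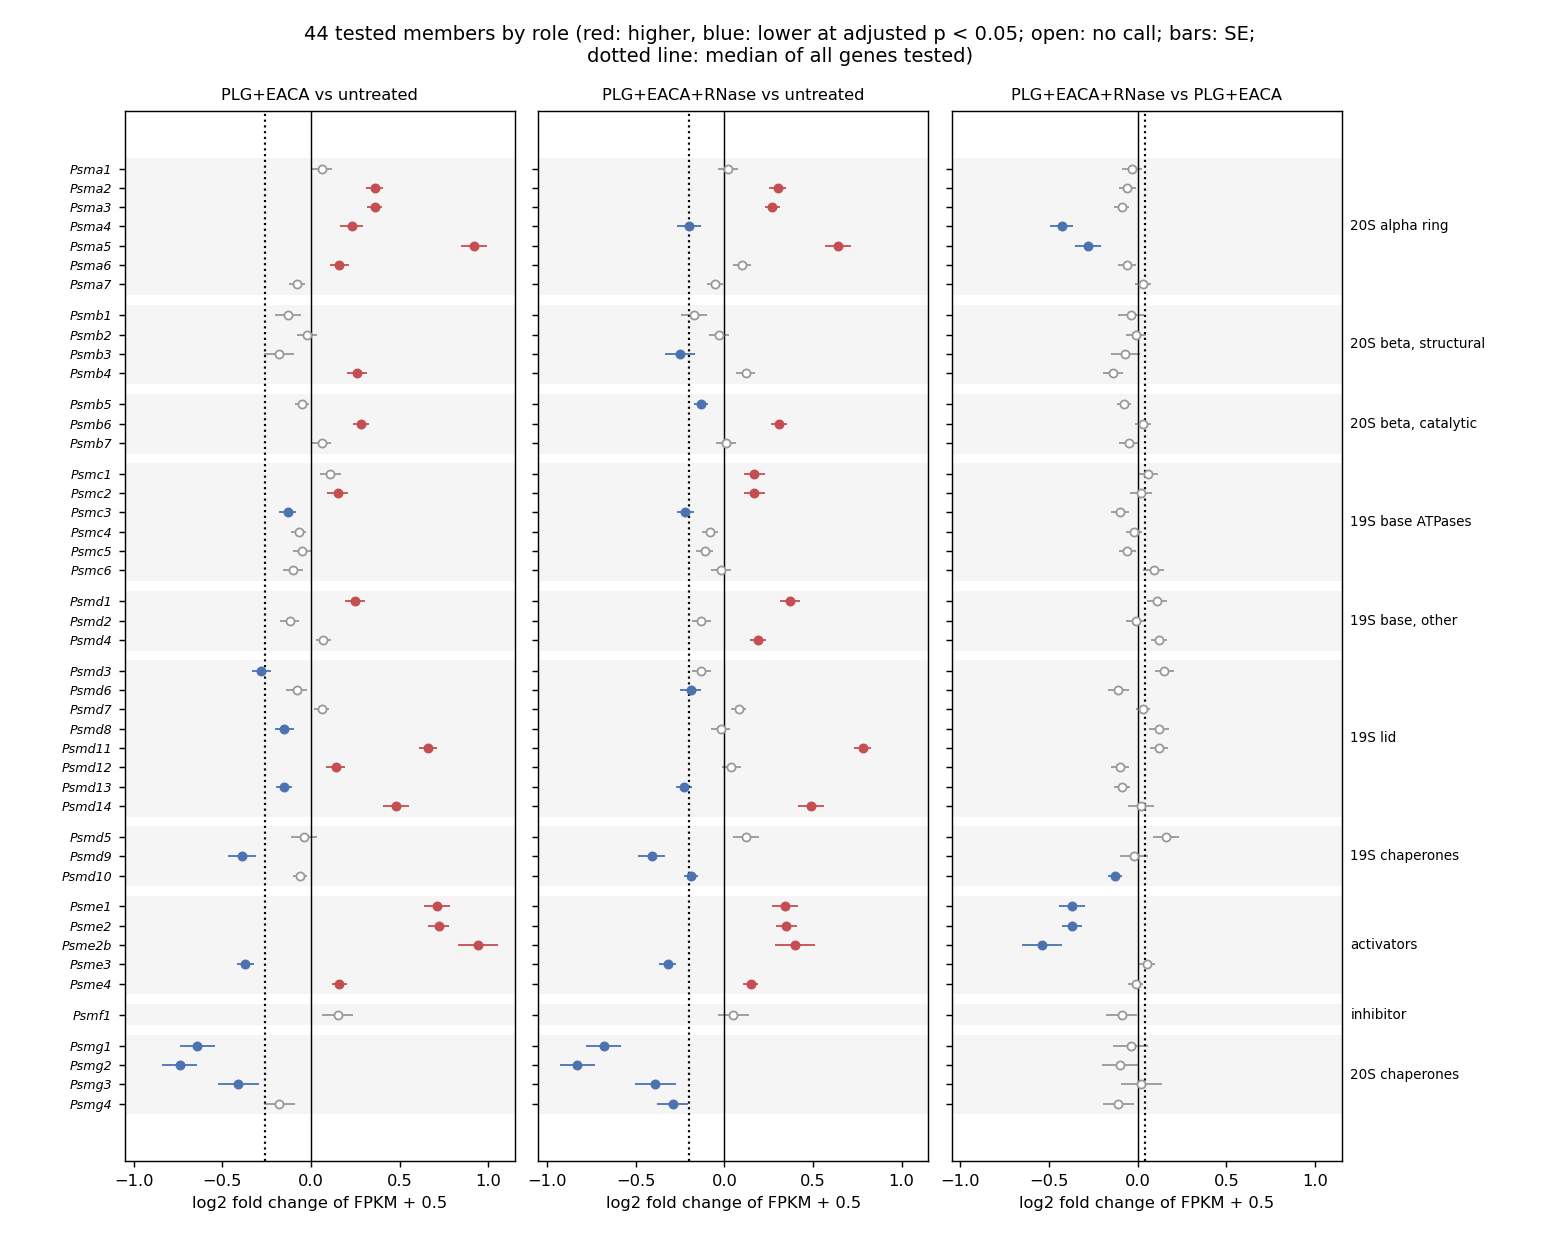
Log2 fold change (horizontal axis, of FPKM + 0.5) of the 44 tested members in the 3 comparisons, grouped by role. Bars are SE, filled points passed adjusted p under 0.05, and the dotted line is the median of all genes tested, at -0.26, -0.20 and 0.04 from left to right. Psmg1 and Psmg2 lie furthest left in both comparisons with untreated cells, and Psma5 and Psmd11 are far to the right in both.

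Of 5 activator genes 4 rose and 1 fell. Psme1 (GRCm38 chr14:55578123-55581529), PA28 alpha, had 82.6, 88.2, 84.5 and 94.4 FPKM in PLG+EACA libraries, against 51.4, 53.7, 52.8 and 55.1 FPKM in untreated libraries. Psme2 (chr14:55587441-55591113, opposite strand), PA28 beta, had 184, 196, 183 and 189.9 FPKM with PLG+EACA, against 111, 119.9, 109 and 117 FPKM in untreated cells. For both genes every PLG+EACA library lay above every untreated one. The log2 fold changes were 0.71 ± 0.0729 for Psme1 and 0.72 ± 0.0576 for Psme2 (SE, n = 4 each; limma adjusted p = 5.66e-06 and 9.4e-07), rises of 1.63-fold and 1.65-fold. Psme2b, a copy of Psme2 on chromosome 11 that is 99.4% identical over 794 bases, had 33.8, 35.5, 34.8 and 38.9 FPKM with PLG+EACA, against 19.8, 20.9, 15.2 and 18.2 FPKM in untreated cells, a log2 fold change of 0.94 (adjusted p = 1.83e-05). Reads of Psme2 and Psme2b cannot be told apart with certainty, so both values are uncertain. Psme3, which encodes the nuclear activator PA28 gamma, went the other way, with 25.7, 24.0, 25.7 and 24.4 FPKM with PLG+EACA against 33.5, 31.2, 33.1 and 31.9 FPKM in untreated cells. The groups did not overlap, and the log2 fold change of Psme3 was -0.37 ± 0.0462 (SE; adjusted p = 2.23e-05), but with scaling it was -0.09 (adjusted p = 0.106). Psme4, the nuclear activator PA200, rose by 0.16 on the log2 scale (adjusted p = 0.00461), and the inhibitor gene Psmf1 (PI31) had 3.97 ± 0.314 FPKM with PLG+EACA and 3.54 ± 0.212 FPKM in untreated cells (adjusted p = 0.157).

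In the 20S alpha ring, 5 of 7 genes rose and none fell, and all 7 were higher with scaling. Psma5 (chr3:108256926-108279974) had 93.8, 103, 95.8 and 99.9 FPKM with PLG+EACA, against 48.8, 54.5, 49.2 and 53.8 FPKM in untreated cells, with no overlap. Its log2 fold change was 0.92 ± 0.073 (SE; adjusted p = 8.61e-07), 1.9-fold. Psma2 and Psma3 each rose by 0.36 on the log2 scale (adjusted p = 4.12e-05 and 1.6e-05), Psma4 by 0.23 (adjusted p = 0.00902) and Psma6 by 0.16 (adjusted p = 0.0162). The ring's summed level was 328.4 ± 4.82 FPKM with PLG+EACA and 256.1 ± 4.83 FPKM in untreated cells (SD, n = 4), of which Psma5 alone held 98.2 ± 4.28 FPKM with PLG+EACA and 51.6 ± 3.01 FPKM in untreated cells. Its other members, Psma1 and Psma7, had log2 fold changes of 0.06 and -0.08 that did not pass.

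In the 20S beta ring the summed level was 406.3 ± 7.32 FPKM with PLG+EACA and 376.7 ± 12.5 FPKM in untreated cells, and 2 of its 7 genes rose on the deposited scale and 5 with scaling, none falling on either. Psmb6 (chr11:70525367-70527858), the catalytic beta 1 subunit, had 128, 132, 127 and 120.2 FPKM with PLG+EACA, against 101, 104, 102 and 112 FPKM in untreated cells. All 4 treated libraries were above the untreated ones, at a log2 fold change of 0.28 ± 0.0448 (SE; adjusted p = 0.000157). The structural subunit gene Psmb4 rose by 0.26 (adjusted p = 0.00109). Psmb5 (chr14:54614119-54618022), the catalytic beta 5 subunit, had 113, 116, 115 and 115 FPKM with PLG+EACA, against 117, 117, 118 and 125 FPKM in untreated cells. The PLG+EACA libraries were all lower, by a log2 fold change of -0.05 (adjusted p = 0.277), which turned to 0.24 with scaling (adjusted p = 0.00377). Psmb7 (chr2:38588036-38644087), the catalytic beta 2 subunit, had 12.4, 12.2, 12.4 and 13.3 FPKM with PLG+EACA, against 11.8, 10.8, 12.9 and 12.6 FPKM in untreated cells. These groups overlapped, and the log2 fold change was 0.06 (adjusted p = 0.339), or 0.34 with scaling (adjusted p = 0.00129). The Psmb7 gene overlaps exons of Nek6 on the opposite strand, and it is not stated whether counting used the strand.

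The summed level of the 19S base and lid was 554.9 ± 20.3 FPKM with PLG+EACA and 555.7 ± 5.45 FPKM in untreated cells. These sums are of unscaled values. Of the 17 genes 5 rose and 4 fell, against 16 higher and none lower with scaling. Psmd11 (chr11:80428615-80473248), the lid subunit Rpn6, had 25.9, 25.5, 25.7 and 22.4 FPKM with PLG+EACA, against 15.6, 15.1, 15.7 and 15.8 FPKM in untreated cells. Even the lowest treated library was well above the untreated ones, and the log2 fold change was 0.66 ± 0.0493 (SE; adjusted p = 6.1e-07), or 1.58-fold. Psmd14, the deubiquitinase of the lid, rose by 0.48 (adjusted p = 0.000121), with 27.8 ± 0.900 FPKM with PLG+EACA and 19.9 ± 1.84 FPKM in untreated cells (SD, n = 4). Psmd1, a scaffold of the base, rose by 0.25 (adjusted p = 0.00161), the lid gene Psmd12 by 0.14 (adjusted p = 0.0316) and the ATPase gene Psmc2 by 0.15 (adjusted p = 0.0499). The last 2 calls were not stable: the call of Psmc2 held in 9 of 19 settings (adjusted p up to 0.151) and that of Psmd12 in 11 (up to 0.081). Psmd3, a lid scaffold, had 13.7, 12.7, 12.8 and 13.4 FPKM with PLG+EACA, against 16.2, 15.7, 16.1 and 16.1 FPKM in untreated cells. The groups did not overlap and Psmd3 fell by 0.28 (adjusted p = 0.000676), but with scaling its log2 fold change was 0.00 (adjusted p = 0.976). Psmc3, Psmd8 and Psmd13 fell by 0.13, 0.15 and 0.15 on the deposited scale and were called higher with scaling. The lower call of Psmc3 held in 10 of 19 settings and that of Psmd8 in 11, and each ended without any one of 6 libraries (adjusted p up to 0.105 and 0.0869).

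**Figure D2:**
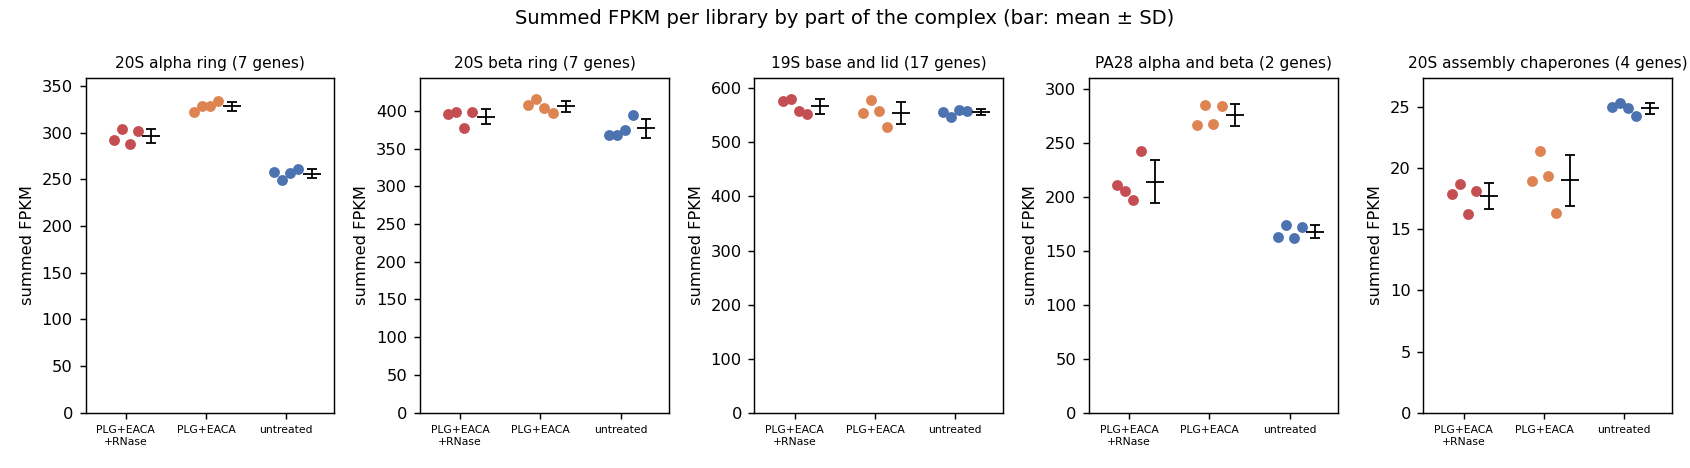
Summed FPKM (vertical axis, from 0) per library of the parts of the proteasome in the 3 groups, with mean and SD. The alpha ring and PA28 alpha and beta separate all 3 groups, with means for the alpha ring of 296.4 FPKM with PLG+EACA+RNase, 328.4 FPKM with PLG+EACA and 256.1 FPKM in untreated cells, while the 19S sums overlap.

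Of the chaperones that build the 20S core, Psmg1 and Psmg2 fell. These 2, partners in the heterodimer that gathers the alpha ring, were also called lower with scaling. Psmg1 (chr16:95979933-95990960) had 3.51, 4.13, 3.58 and 3.36 FPKM with PLG+EACA, against 6.37, 6.19, 5.96 and 5.32 FPKM in untreated cells. Psmg2 had 1.56, 1.70, 1.64 and 1.77 FPKM with PLG+EACA, against 3.6, 3.08, 2.98 and 2.84 FPKM in untreated cells. Neither gene's groups overlapped. Psmg1 fell by 0.64 ± 0.0993 on the log2 scale (SE; adjusted p = 0.000126) and Psmg2 by 0.74 ± 0.0992 (adjusted p = 4.32e-05), the lowest value of any tested member. Psmg4 had a log2 fold change of -0.18 (adjusted p = 0.0838). Psmg3, which had to differ to pass the filter, had a log2 fold change of -0.41 (adjusted p = 0.00725), or -0.22 with scaling (adjusted p = 0.127). Among the 3 chaperones of the 19S base, Psmd9 fell by 0.39 (adjusted p = 0.000797; -0.14 with scaling, adjusted p = 0.177), with 2.56 ± 0.268 FPKM with PLG+EACA and 3.51 ± 0.297 FPKM in untreated cells (SD, n = 4). Psmd5 and Psmd10 did not pass on the deposited scale, and the log2 fold change of Psmd5, -0.04, turned to 0.24 with scaling (adjusted p = 0.00533).

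PLG+EACA+RNase was set against the same untreated libraries, so this comparison is not independent of the one before. The PA28 alpha and beta genes, 3 of the 7 alpha ring genes and Psmd11 were higher with PLG+EACA+RNase, and Psmg1 and Psmg2 were lower. Of the 17 genes of the 19S base and lid 6 rose and 3 fell, against 10 higher and none lower with scaling. Of the 44 members 14 rose, 13 fell and 17 did not pass, where 64.4% of all genes tested were called, 16% higher and 48.4% lower. Psmg3, which passed the filter through the untreated libraries alone, is again among those that fell. The median log2 fold change was -0.00 over the members and -0.20 over all genes tested, and 34 of the 44 members lay above the median of all genes. With scaling 24 members rose and 4 fell (Psmd9, Psme3, Psmg1 and Psmg2), against 25% higher and 30.2% lower of all genes (55.1% in either direction). In 15 members the PLG+EACA+RNase libraries all lay above the untreated ones and in 13, Psmg3 among them, all lay below. The shares over all genes were 15% and 46.7%.

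Psmd11 was the member furthest above untreated cells, with 27.1, 26.5, 26.3 and 28.0 FPKM with PLG+EACA+RNase against the untreated values of 15.1 to 15.8 FPKM. The log2 fold change of Psmd11 was 0.78 ± 0.0493 (SE; adjusted p = 2.53e-07), or 1.71-fold. Psma5 had 77.8, 88.7, 70.4 and 87.8 FPKM with PLG+EACA+RNase, all above the untreated 48.8 to 54.5 FPKM, a log2 fold change of 0.64 ± 0.073 (adjusted p = 1.26e-05). Psmd14 rose by 0.49 (adjusted p = 0.000104), Psmd1 by 0.37 (adjusted p = 0.000116), Psmb6 by 0.31 (adjusted p = 8.5e-05), Psma2 by 0.30 (adjusted p = 0.00016) and Psma3 by 0.27 (adjusted p = 0.000169). Psmd4, a ubiquitin receptor of the base, rose by 0.19 (adjusted p = 0.00229), and Psmc1 and Psmc2, ATPases of the base, by 0.17 each (adjusted p = 0.0202 and 0.0292). The call of Psmc1 ended without PLG+EACA+RNase replicate 2 (adjusted p = 0.0517) or untreated replicate 2 (0.0671). That of Psmc2 ended without PLG+EACA+RNase replicate 1 (0.0731) or 2 (0.0847) and without untreated replicate 2 (0.0542) or 3 (0.0949).

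The PA28 alpha and beta genes rose as well. Psme1 had 68.5, 63.1, 61.3 and 79.0 FPKM with PLG+EACA+RNase, against 51.4 to 55.1 FPKM in untreated cells, and Psme2 had 142, 142, 135 and 164 FPKM, against 109 to 119.9 FPKM. The groups did not overlap for either gene, and the log2 fold changes were 0.34 (adjusted p = 0.00138) and 0.35 (adjusted p = 0.000232). Psme2b had a log2 fold change of 0.40 (adjusted p = 0.00807), with 22.9, 22.5, 22.4 and 30.8 FPKM with PLG+EACA+RNase against 15.2 to 20.9 FPKM in untreated cells. Psme3 fell by 0.32 (adjusted p = 8.08e-05), with 26.5, 27.1, 25.6 and 24.2 FPKM with PLG+EACA+RNase against 31.2 to 33.5 FPKM in untreated cells. Psme4 rose by 0.15 (adjusted p = 0.0075).

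Psmg1 and Psmg2 fell here too. Psmg2 had 1.95, 1.54, 1.38 and 1.31 FPKM with PLG+EACA+RNase, against 2.84 to 3.6 FPKM in untreated cells, and fell by 0.83 ± 0.0992 on the log2 scale (SE; adjusted p = 1.84e-05), or 1.78-fold. Psmg1 fell by 0.68 (adjusted p = 8.36e-05), with 3.54, 4.19, 2.82 and 3.61 FPKM with PLG+EACA+RNase against 5.32 to 6.37 FPKM. Psmg4 fell by 0.29 (adjusted p = 0.0114; -0.11 with scaling, adjusted p = 0.244). Psmg3, under the same limit of the filter, had a log2 fold change of -0.39 (adjusted p = 0.0102; -0.26 with scaling, adjusted p = 0.067). Among the catalytic subunits, Psmb6 had 129, 135, 126 and 128 FPKM with PLG+EACA+RNase, all above the untreated 101 to 112 FPKM. Psmb7 had 12.4, 11.9, 11.9 and 12.2 FPKM, within the untreated range of 10.8 to 12.9 FPKM (log2 fold change 0.01, or 0.19 with scaling, adjusted p = 0.0323). Psmb5 had 111, 109.9, 103 and 112 FPKM with PLG+EACA+RNase, all under the untreated 117 to 125 FPKM, a log2 fold change of -0.13 (adjusted p = 0.013) that turned to 0.06 with scaling (adjusted p = 0.41). Psma4 fell by 0.20 (adjusted p = 0.0176), and that call ended with scaling (adjusted p = 0.874), without PLG+EACA+RNase replicate 3 (adjusted p = 0.0547) and without untreated replicate 3 (adjusted p = 0.0589).

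**Figure D3:**
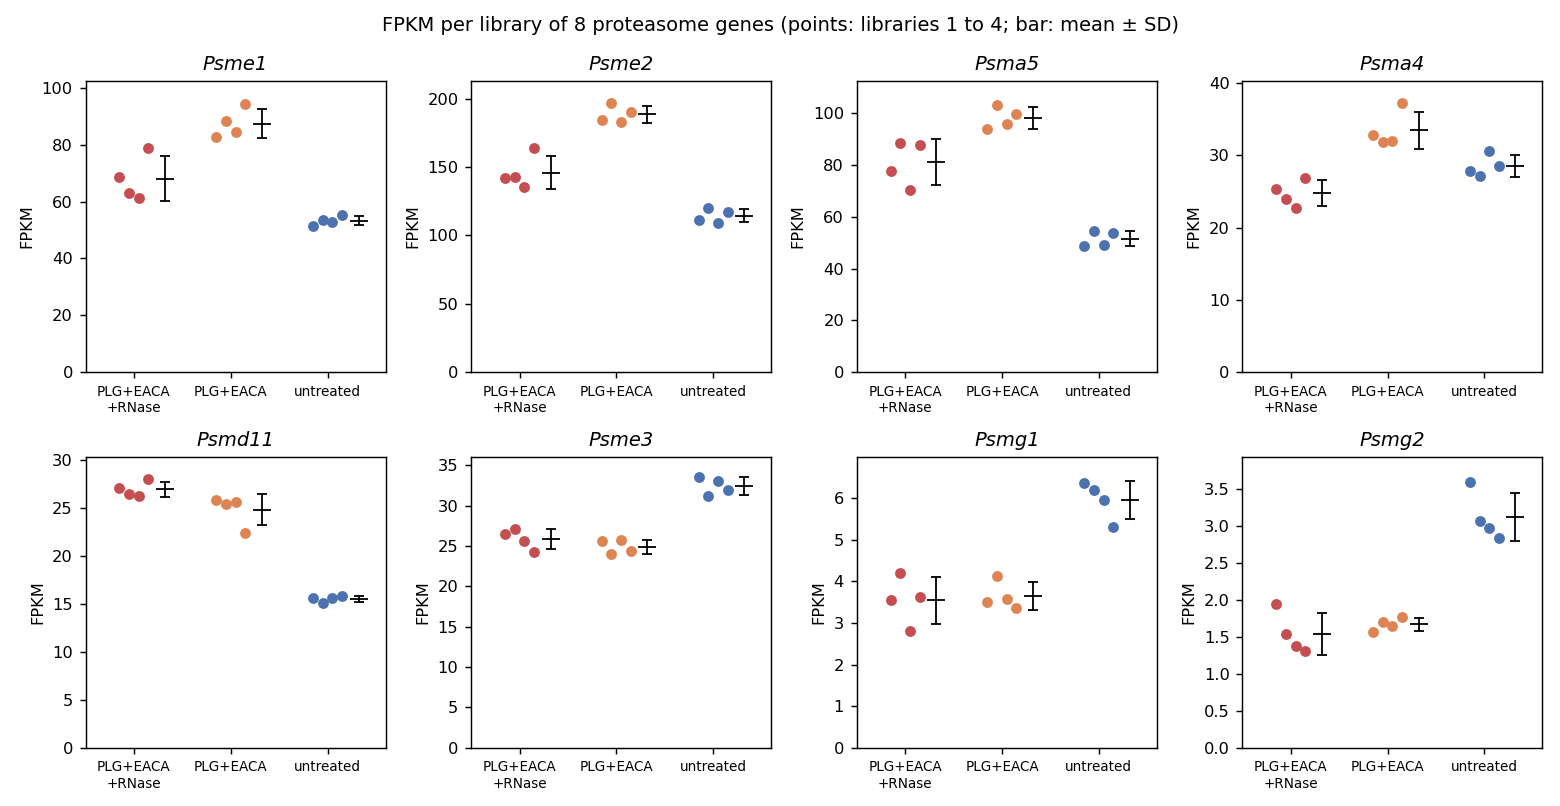
FPKM (vertical axis, from 0) of 8 genes in the 4 libraries of each group, with mean and SD. For Psme1, Psme2 and Psma5 the PLG+EACA+RNase libraries lie between the other groups, for Psma4 they lie under both, and for Psmd11, Psme3, Psmg1 and Psmg2 both treatments lie on one side of the untreated libraries.

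PLG+EACA+RNase against PLG+EACA asks what differed when the plasminogen had also been exposed to RNases. Both groups were used in the comparisons above, so this one is not independent of them. A level high by chance in the PLG+EACA libraries would give a rise from untreated cells and a fall here. Without a group given RNase alone, RNase acting on the cells cannot be told apart from its action on the plasminogen. The PA28 genes and the alpha subunit genes Psma4 and Psma5 were lower with PLG+EACA+RNase, and most of the complex did not pass the test. Of the 44 members, none rose, 6 fell and 38 did not pass, where 20.8% of all genes tested were called, 12.1% higher and 8.73% lower. The count of 6 is 13.6% of the members. At an unadjusted limma p under 0.05, 4 members were higher and 7 lower. The share of all genes at that threshold was not counted, so these counts cannot be set against the adjusted shares. The median log2 fold change was -0.04 over the members and 0.04 over all genes tested, and 9 of the 44 members lay above the median of all genes. With scaling none rose and 14 fell, against 7.77% higher and 17.3% lower of all genes (25% in either direction). In 2 members the PLG+EACA+RNase libraries all lay above the PLG+EACA ones and in 7 all lay below, where the shares over all genes were 10.4% and 7.68%.

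All 3 genes of PA28 alpha and beta fell. Psme1 had 61.3 to 79.0 FPKM with PLG+EACA+RNase and 82.6 to 94.4 FPKM with PLG+EACA, and fell by 0.37 ± 0.0729 (SE, log2; adjusted p = 0.00884), or 1.29-fold. Psme2 had 135 to 164 FPKM with PLG+EACA+RNase and 183 to 196 FPKM with PLG+EACA, and fell by 0.37 ± 0.0576 (adjusted p = 0.0038). Psme2b fell by 0.54 ± 0.113 (adjusted p = 0.0106). No library of the 2 groups overlapped for these genes, and PLG+EACA+RNase replicate 4 was the highest of its group for each of them. Without that replicate the log2 fold changes of Psme1, Psme2 and Psme2b were -0.44, -0.43 and -0.65. The summed level of Psme1 and Psme2 was 210.4, 205.4, 196.7 and 242.6 FPKM with PLG+EACA+RNase and 266.8, 284.6, 267.6 and 284.3 FPKM with PLG+EACA, against 162.1 to 173.6 FPKM in untreated cells.

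Psma4 (chr9:54950790-54958030) had 25.3, 24.0, 22.7 and 26.9 FPKM with PLG+EACA+RNase, against 32.8, 31.8, 32 and 37.3 FPKM with PLG+EACA. The groups did not overlap, and it fell by 0.43 ± 0.0662 on the log2 scale (SE; adjusted p = 0.0038), or 1.35-fold, in every setting tried. Psma5 fell by 0.28 ± 0.073 (adjusted p = 0.0225), with 70.4 to 88.7 FPKM with PLG+EACA+RNase and 93.8 to 103 FPKM with PLG+EACA. The call of Psma5 ended when the 2 groups were fitted alone (adjusted p = 0.0634), without PLG+EACA replicate 4 (0.0506), without PLG+EACA+RNase replicate 1 (0.0553) and without PLG+EACA+RNase replicate 3 (0.0604). Psmd10, the base chaperone gankyrin, fell by 0.13 (adjusted p = 0.038), a call that held in 7 of 19 settings (adjusted p up to 0.122).

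The highest values belonged to Psmd5, a chaperone of the base, and Psmd3. Psmd5 had 9.69, 10.1, 10.4 and 8.49 FPKM with PLG+EACA+RNase, against 8.49, 9.03, 9.34 and 7.70 FPKM with PLG+EACA, overlapping groups with a log2 fold change of 0.16 (adjusted p = 0.148). Psmd3 had 15.5, 13, 15.2 and 15 FPKM with PLG+EACA+RNase, against 12.7 to 13.7 FPKM with PLG+EACA, a log2 fold change of 0.15 (adjusted p = 0.067). Either gene passed once 1 library was left out, Psmd5 without PLG+EACA+RNase replicate 4 (adjusted p = 0.0342) and Psmd3 without PLG+EACA+RNase replicate 2 (adjusted p = 0.0241). Psmd11, Psmd14, Psmb6, Psme3, Psmg1 and Psmg2, which had moved away from untreated cells in both treatments, had log2 fold changes between the treatments of 0.12, 0.02, 0.03, 0.05, -0.04 and -0.10, and none passed.

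The constitutive catalytic subunits were also set against their inducible counterparts as log2 ratios of FPKM + 0.5 within each library. Psmb9 over Psmb6 was -2.85, -3.24, -2.92 and -2.52 with PLG+EACA+RNase, -2.47, -2.59, -2.39 and -2.08 with PLG+EACA, and -3.07, -3.11, -3.19 and -3.55 in untreated cells. Every PLG+EACA library was above every untreated one, by a mean of 0.85 (exact permutation test of 4 against 4 libraries, two-sided p = 0.0286, the smallest such a test can give). Adjusted over the 9 tests (3 ratios in 3 comparisons) this p was 0.0514, so no ratio passed. That says little: with a floor of 0.0286, a single ratio could not pass this adjustment alone, however large its difference. Psmb8 over Psmb5 differed by 0.34 and Psmb10 over Psmb7 by 0.47 between PLG+EACA and untreated cells, with the same p-values from the exact permutation test. Between PLG+EACA+RNase and PLG+EACA the 3 ratios differed by -0.19 for Psmb8 over Psmb5 and by -0.57 for Psmb10 over Psmb7 (exact permutation p = 0.0286, adjusted 0.0514), and by -0.50 for Psmb9 over Psmb6 (exact permutation p = 0.0571, adjusted 0.0857). Between PLG+EACA+RNase and untreated cells they differed by 0.15, 0.35 and -0.10 for the pairs with Psmb5, Psmb6 and Psmb7 (exact permutation p = 0.143, 0.114 and 0.6). The Psmb9 gene overlaps exons of Tap1, a neighbouring antigen-transport gene.

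**Figure D4:**
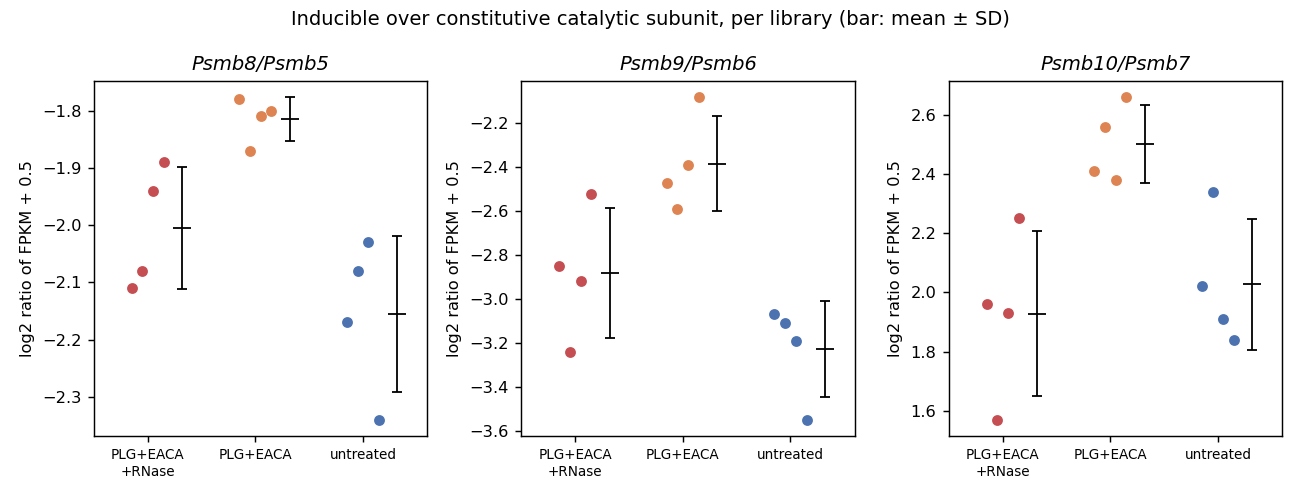
Log2 ratio of FPKM + 0.5 of the inducible over the constitutive catalytic subunit (vertical axis, not starting at 0) in each library, with mean and SD. The PLG+EACA libraries lie above the untreated ones for all 3 pairs, and the PLG+EACA+RNase libraries overlap the untreated ones for all 3.

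Of the inducible genes, Psmb9 had 24.0 ± 2.84 FPKM with PLG+EACA and 10.7 ± 1.18 FPKM in untreated cells (SD, n = 4; log2 fold change 1.13, adjusted p = 1.24e-05). Psmb10 rose by 0.54 (adjusted p = 0.00316) and Psmb8 by 0.29 (adjusted p = 0.00106) in the same comparison. With PLG+EACA+RNase against PLG+EACA, Psmb8, Psmb9 and Psmb10 fell by 0.27, 0.47 and 0.62 (adjusted p = 0.0129, 0.0263 and 0.0106). The Psmb9 call of that comparison ended in 6 alternatives, with adjusted p from 0.0502 to 0.0756.

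Other genes of the pathway were read from a list of 36 (proteasome genes outside the symbol rule, the immunoproteasome, regulators of proteasome genes, ubiquitin shuttles, ubiquitin and its activation), of which 35 were tested. With PLG+EACA against untreated cells 11 rose and 9 fell, with PLG+EACA+RNase against untreated cells 11 rose and 7 fell, and with PLG+EACA+RNase against PLG+EACA 4 rose and 6 fell. Of all genes tested 14.9% rose and 53.4% fell in the first, 16% and 48.4% in the second, and 12.1% and 8.73% in the third. With scaling 23 rose and 4 fell in the first of these comparisons, 18 rose and 5 fell in the second, and 2 rose and 7 fell in the third, where the shares of all genes were 27.8% and 25.2%, 25% and 30.2%, and 7.77% and 17.3%. Zfand5, a zinc finger protein that binds the proteasome, rose by 0.66 with PLG+EACA+RNase and by 0.51 with PLG+EACA (adjusted p = 1.31e-06 and 7.64e-06).

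Several genes around the proteasome fell in both treatments on the deposited scale. Nfe2l1, the transcription factor that drives proteasome genes when the proteasome is inhibited, had 82.3 ± 2.6 FPKM with PLG+EACA+RNase, 94.3 ± 7.72 FPKM with PLG+EACA and 123 ± 3.26 FPKM in untreated cells (SD, n = 4). Its log2 fold changes from untreated cells were -0.58 with PLG+EACA+RNase and -0.39 with PLG+EACA (adjusted p = 3.95e-06 and 7.5e-05). With scaling they were -0.39 (adjusted p = 4.88e-05) and -0.10 (adjusted p = 0.127), so the PLG+EACA call ended. Ddi2, the protease that activates it, had 6.33 ± 1.09 FPKM with PLG+EACA+RNase, 4.52 ± 0.772 FPKM with PLG+EACA and 10.1 ± 0.0732 FPKM in untreated cells, log2 fold changes from untreated cells of -0.65 with PLG+EACA+RNase and -1.09 with PLG+EACA (adjusted p = 0.000735 and 1.36e-05). Midn, which carries nuclear proteins to the proteasome, fell by 0.56 with PLG+EACA+RNase and by 0.65 with PLG+EACA (adjusted p = 1.38e-05 and 4.15e-06). The shuttle gene Ubqln4 fell by 0.61 with PLG+EACA+RNase and 0.63 with PLG+EACA, and the ubiquitin ligase gene Ube3c by 0.62 with PLG+EACA+RNase and 0.49 with PLG+EACA. With scaling the falls with PLG+EACA were 0.36 for Midn, 0.35 for Ubqln4 and 0.23 for Ube3c, and all passed. Zfand2a, a heat-shock-induced relative of Zfand5, had 42.2, 44.1, 42.8 and 31.5 FPKM with PLG+EACA+RNase, against 28.3, 27.8, 31.2 and 23.8 FPKM with PLG+EACA, and rose by 0.52 (adjusted p = 0.00974). Nfe2l1 and Ddi2 were chosen after their values were seen, from 6 listed regulators of proteasome genes that did not move together. Of the others, Bach1 rose by 0.68 with PLG+EACA+RNase and by 0.42 with PLG+EACA (limma adjusted p = 4.1e-05 and 0.00129). Keap1 rose by 0.56 with PLG+EACA (adjusted p = 0.000264) and did not pass with PLG+EACA+RNase (0.21, adjusted p = 0.0698). Nfe2l2 and Ngly1 passed in neither comparison with untreated cells on the deposited scale.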

How the data were processed

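Total RNA libraries of mouse macrophages, 12 in 3 groups of 4, were analysed from a table of FPKM, which the authors deposited with 1 column per library. The submitters' processing notes name STAR 2.7.11a, featureCounts 2.0.6, cutadapt 4.5, DESeq2 1.40.2, FastQC 0.12.1 and build GRCm38.p6 without saying what each did. The library kit was directional, per the labels, but no source used here says if reads were counted by strand. Groups came from the labels. The depth came from the steps of FPKM times length. In a check limited to shorter genes and lower read counts, 100% of these values lay within 0.1 of whole multiples of 1 read. Spread between replicates exceeded counting error, with chi-square over degrees of freedom between 3.21 and 35.0. FPKM were not scaled between libraries.

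Genes with FPKM of at least 1 in at least 4 libraries (11165) were tested on log2(FPKM + 0.5), which understates the change of low genes, with limma 3.58.1 in R 4.3.3 (trend, not robust, all 12 libraries in 1 fit). Tests were two-sided, with Benjamini-Hochberg adjustment over all genes tested and a threshold of 0.05. Ratios were compared by exact permutation in scipy 1.17.1. The fit was tested on simulated data before use. Alternatives were pseudocounts of 0.1 and 1, no filter, median-of-ratios scaling of FPKM, a replicate block, 2 groups only, and each library left out.

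Coordinates and symbols are those of the deposited table, and all 47 members had identical coordinates in GENCODE M21. Near-identical copies (at least 95% identity over at least 300 bases) were searched with BLAST among GENCODE M21 transcripts: 13 members had one in the table, 4 with one at a mean of at least 1 FPKM. Sequences are from RefSeq for GRCm38.p6, which held windows for 39 of the 47 members. The members and lists were chosen with earlier results of these data known. Values in each library are given for Psmb5, Psmb6, Psmb7, Psme1 and Psme2 and, per comparison, the 4 tested members with the smallest p and the 2 with the largest and the 2 with the lowest log2 fold change. Up to 4 members per role were added, and of the companion list the 3 genes with the smallest p per comparison. For 1 gene of that list the result is not reported here.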

Additional observations from a re-analysis of the deposited data

Results flagged for a closer look

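The FPKM of 4 members stood apart in 1 library of a group of 4, among 42 groups (14 genes in 3 groups) whose libraries are given one by one. Chance alone flags about 1 in 20 such groups. Psme2b had 30.769 FPKM in PLG+EACA+RNase replicate 4, where the next highest library of that group had 22.911 FPKM, and Psme1 and Psme2 were also highest there. Without that library the log2 fold change of Psme2b between PLG+EACA+RNase and PLG+EACA was -0.65, against -0.54 with it, and between PLG+EACA+RNase and untreated cells it was 0.29, against 0.40 with it. Psmd11 had 22.42 FPKM in PLG+EACA replicate 4, where the next lowest had 25.458 FPKM, and its log2 fold change from untreated cells was 0.71 without that library, against 0.66 with it. Psmb5 had 125.035 FPKM in untreated replicate 4, where the next highest had 117.565 FPKM. Psmd3 had 15.664 FPKM in untreated replicate 2, where the next lowest had 16.11 FPKM.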

How the results depend on the processing

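The scaling between libraries was the choice that moved the counts. On the deposited scale the median of all genes tested lay 0.26 below 0 with PLG+EACA and 0.20 below 0 with PLG+EACA+RNase, both against untreated cells, on the log2 scale. With median-of-ratios scaling 35 members rose and 2 fell with PLG+EACA against untreated cells, 24 rose and 4 fell with PLG+EACA+RNase against untreated cells, and 14 fell with PLG+EACA+RNase against PLG+EACA. With PLG+EACA against untreated cells 17 of the 44 members turned from negative to positive with scaling, 13 of them called higher, and with PLG+EACA+RNase against untreated cells 10 did, 3 of them called higher. With PLG+EACA+RNase against PLG+EACA 9 turned from positive to negative. The share of all genes whose sign turned was not counted, so these turns cannot be called particular to the members. Among the genes of the naming rule, the sign turned with a call on at least 1 of the 2 scales for Psmb5 (0.24, adjusted p = 0.00377), Psmd5 (0.24, adjusted p = 0.00533) and Psmd3 (0.00, adjusted p = 0.976) with PLG+EACA against untreated cells, and for Psmb5 (0.06, adjusted p = 0.41) with PLG+EACA+RNase against untreated cells. The cause was not tested beyond the shift of the median. Leaving out each library in turn gave 14 to 17 members higher and 6 to 11 lower with PLG+EACA against untreated cells, and 12 to 15 higher and 10 to 16 lower with PLG+EACA+RNase against untreated cells. With PLG+EACA+RNase against PLG+EACA it gave 0 to 2 higher and 4 to 6 lower, with 1 higher without PLG+EACA replicate 2, 1 without PLG+EACA+RNase replicate 2 and 2 without PLG+EACA+RNase replicate 4. Whether the replicate numbers pair the samples was not settled. Over 12 pairs of libraries with the same number the correlation of deviations ran from -0.176 to 0.332, with 3 over 0.1. Replicates 4 and 2 of the 2 treatments gave 0.332 and 0.185, and replicate 3 of PLG+EACA and of untreated cells gave 0.153. Pairs with unlike numbers ran from -0.336 to 0.118. With the replicate block 1 member, Psmd3, rose with PLG+EACA+RNase against PLG+EACA (log2 fold change 0.15, adjusted p = 0.0431), and the other counts stayed within 1.5 times. Of 756 alternative values of the members named by the rule, 734 kept their direction and side of the threshold and 22 did not. All 108 alternative values of the catalytic ratios kept theirs, which says little, since with 3 libraries against 4 the smallest exact permutation p is 0.0571. Without 1 untreated library Psmg3 was not tested, since it no longer passed the filter.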
